A study of Mus musculus with 18 samples.

Results

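Notch1, Notch2, Notch3, Hes1, Dtx1, Nrarp, Rbpj, Maml1 and Numb are 3 receptors, 3 targets, 2 parts of the transcription complex and an inhibitor of the Notch pathway. They were taken by gene symbol, are 9 of 43280 gene symbols in the count tables of 18 RNA sequencing libraries from mouse T-lineage cells, and all 9 were among the 13922 genes abundant enough to test. Cells were sorted for the alpha-beta T-cell receptor, CD4, CD8 and CD45, leaving out cells with NK1.1, the gamma-delta receptor or CD11c. The CD4+CD8+ group (n = 3) and the Artificial CD8 group (n = 5, CD8+ cells) were differentiated on OP9-DL1, a stromal cell line that carries the Notch ligand Delta-like 1. The iRTE group (n = 5) is also CD8+, and these 3 groups came from cells labelled Pmel iPSC, which are induced pluripotent stem cells. The reference is naive CD8+ cells taken directly from the spleen of transgenic mice (splenic CD8, n = 5), whose transgene the labels do not name. The labels do not spell out iRTE. By elimination it is the group made in 3D thymic culture, but the growth protocol names OP9-DL1 for every library, the splenic ones included, so the Notch ligand that iRTE cells met is not given. No label says that replicates are separate cultures or animals, so each p-value covers only how far these libraries spread, which may be technical. The library descriptions divide the iRTE group into libraries 1 to 3 and libraries 4 and 5, which may be separate sets.

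A Notch receptor is a surface protein that is cut when it binds a ligand of the Delta or Jagged family on a neighbouring cell. The freed intracellular part enters the nucleus, joins the DNA-binding protein RBPJ and a Mastermind coactivator, and turns on target genes such as Hes1 and Dtx1. In the thymus, Notch1 commits progenitors to the T lineage and supports them until the beta chain of the receptor is selected, after which the signal declines.

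The 4 groups differed in receptors and targets in an order that was not the same for each gene. Notch1 was highest in Artificial CD8 cells and lowest in iRTE cells, with CD4+CD8+ and splenic cells between them. Notch3 and Hes1 were high in both groups known to have grown on OP9-DL1, lower in iRTE cells and lowest in splenic cells. Dtx1 was lower in iRTE cells than in each of the other 3 groups, which did not pass a test against one another. Levels are given as CPM, the counts of a gene per 1000000 counts of the library, with library totals scaled by the TMM method, as mean ± SD over libraries. Changes are log2 fold changes fitted by edgeR, given with the SE of the difference in mean log2 CPM, which is taken from the libraries and not from the fit. A change was called when the p of the edgeR quasi-likelihood test, with Benjamini-Hochberg adjustment over all genes tested, was under 0.05. The 4 groups shared an estimate of spread for each gene, so the spread of iRTE libraries also entered tests between other groups. In bulk libraries fewer cells of a type and less RNA per cell cannot be told apart.

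**Figure D1:**
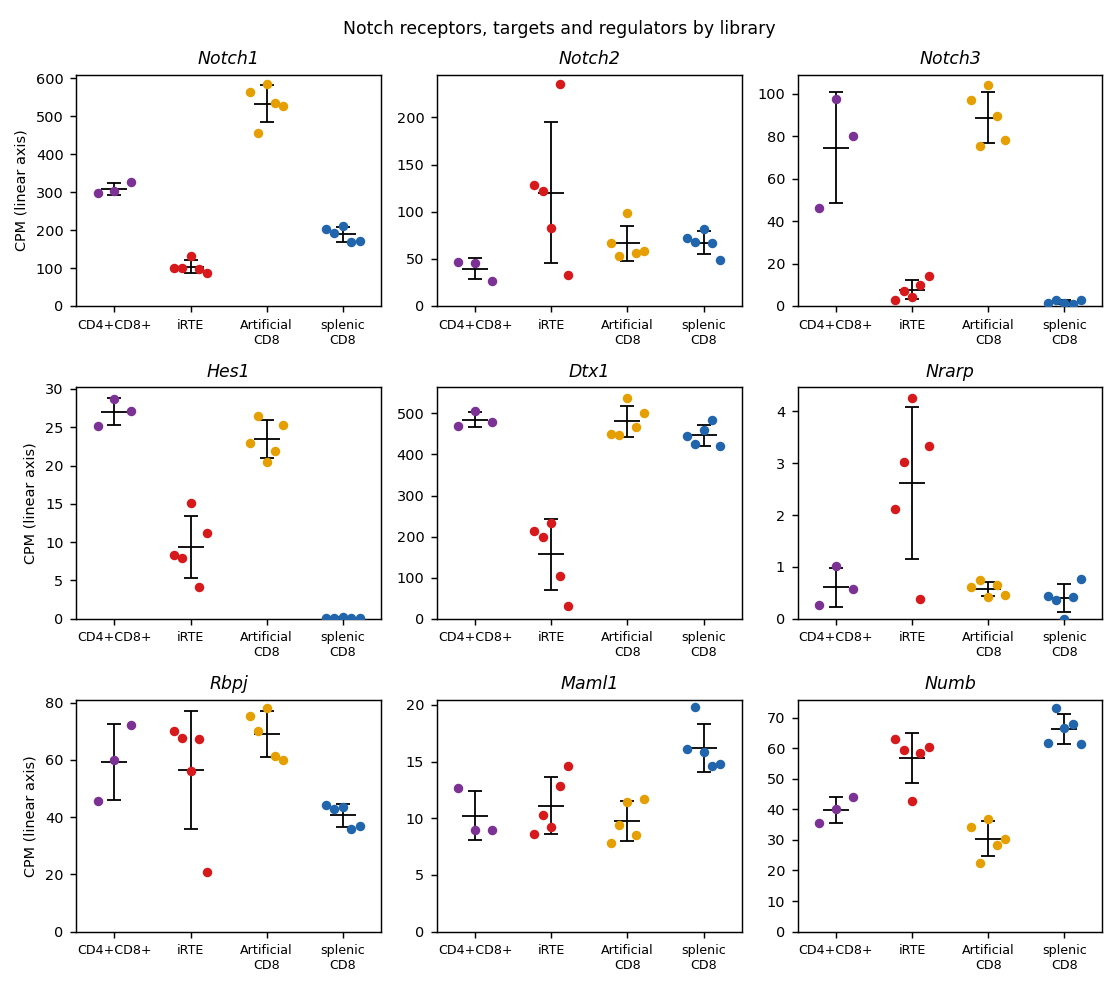
Scaled CPM (linear axes, from 0) of the 9 genes in every library. Each point is a library, the wide tick is the group mean and the bars are 1 SD (n = 3 for CD4+CD8+, n = 5 for the others). The 5 iRTE libraries lie below all others for Notch1 (87.5 to 132 CPM) and Dtx1 (32.2 to 234 CPM), and the 5 splenic libraries lie near 0 for Hes1.

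The groups carried the markers of their labels. Cd4 averaged 224 ± 59.9 CPM in CD4+CD8+ cells, 4.41 ± 2.85 CPM in Artificial CD8 cells and 0.0324 ± 0.0725 CPM in splenic cells, and no iRTE library had a Cd4 count. Total counts ran from 11132768 to 19305751 per library, so that 3 counts, the floor used here for a gene with no count, equal 0.152 to 0.287 CPM. The summed level of 12 stromal markers was 1.64 CPM in CD4+CD8+ library 1, 51 CPM in library 2 and 91 CPM in library 3. It was 0.973 to 4.31 CPM in iRTE, 18.7 to 29.5 CPM in Artificial CD8 and 2.29 to 3.91 CPM in splenic libraries. In Artificial CD8 cells 1 of these markers, Pdgfrb, gave 14.4 to 23.4 CPM, while Col1a1 had no count in 3 of the 5 libraries and Col3a1 in 4 of them. Of 9 thymic epithelial markers, the defining gene Foxn1 and Krt14 had no count in any group, but others were detected. The median summed level of all 9 was 142 CPM in CD4+CD8+, 126 in iRTE, 136 in splenic and 188 in Artificial CD8 libraries. In the same order, Ly75 averaged 111, 150, 127 and 154 CPM and Epcam 17, 4.34, 2.38 and 36.6 CPM. Whether these counts came from epithelial cells was not tested. Summed erythroid markers reached 89.3 to 121 CPM and B-cell markers 35.8 to 50.1 CPM in splenic libraries, against at most 8.64 CPM of B-cell markers elsewhere.

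Notch1, the receptor that T-cell progenitors need, stood at 297, 303 and 327 CPM in CD4+CD8+ libraries 1 to 3 and at 101, 99.5, 132, 97.1 and 87.5 CPM in iRTE libraries 1 to 5. Artificial CD8 libraries 1 to 5 held 563, 456, 585, 535 and 527 CPM, and splenic libraries 1 to 5 held 203, 193, 212, 168 and 170 CPM. No group overlapped another: every Artificial CD8 library was above every CD4+CD8+ library, these were above every splenic library, and the iRTE libraries were below all others. Relative to CD4+CD8+ cells (309 ± 16.2 CPM), Notch1 fell by 1.58 ± 0.11 on the log2 scale in iRTE cells (103 ± 16.8 CPM, adjusted p = 4.72e-08) and by 0.71 ± 0.08 in splenic cells (189 ± 19.8 CPM, adjusted p = 9.15e-05). It rose by 0.79 ± 0.07 in Artificial CD8 cells (533 ± 48.9 CPM, adjusted p = 0.000534). The widest gap was between iRTE and Artificial CD8 cells, a log2 change of -2.37 ± 0.12 (adjusted p = 4.65e-11), a 5.16-fold lower level. Artificial CD8 cells were 2.82-fold above splenic cells (1.50 ± 0.09, adjusted p = 1.52e-09), and iRTE cells were 1.83-fold below them (-0.87 ± 0.12, adjusted p = 2.33e-06). All 6 calls of Notch1 held in iRTE libraries 1 to 3 and in iRTE libraries 4 and 5 taken alone where those libraries took part, and with CD4+CD8+ library 1 as the only library of its group.

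Notch3, a receptor of thymocytes before and around beta selection, stood at 46.1, 97.7 and 80.3 CPM in CD4+CD8+ libraries 1 to 3 and at 2.59, 7.19, 4.25, 9.84 and 13.9 CPM in iRTE libraries 1 to 5. Artificial CD8 libraries held 97.2, 75.4, 104, 89.7 and 78.1 CPM, and splenic libraries 1.40, 2.62, 1.55, 0.845 and 2.89 CPM. The CD4+CD8+ and Artificial CD8 ranges overlapped and both lay above every iRTE and splenic library, whereas iRTE library 1 lay within the splenic range. Notch3 was 9.72-fold lower in iRTE than in CD4+CD8+ cells (-3.28 ± 0.53, adjusted p = 5.31e-06) and 11.6-fold lower than in Artificial CD8 cells (-3.53 ± 0.43, adjusted p = 4.48e-07). The splenic level was lower still, by -5.35 ± 0.44 against CD4+CD8+ cells (adjusted p = 7.87e-09). Artificial CD8 cells were 48.7-fold above splenic cells (5.60 ± 0.31, adjusted p = 1.42e-09). Notch3 in iRTE cells was 4.21-fold above splenic cells (2.07 ± 0.52, adjusted p = 0.000171), with 1.38 for iRTE libraries 1 to 3 and 2.72 for iRTE libraries 4 and 5. Artificial CD8 and CD4+CD8+ cells did not pass a test of their difference (0.25 ± 0.34, adjusted p = 0.714). CD4+CD8+ library 1, the library with the lowest stromal sum, also had the lowest Notch3 of its group. With it alone the change was -2.58 in iRTE (adjusted p = 0.003) and -4.66 in splenic cells (adjusted p = 2.83e-06), so both calls held, and the part of stromal RNA in the other values was not tested.

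Notch2, a receptor that also acts in B cells and in activated CD8+ cells, was the most uneven of the 3. It stood at 46.8, 46.0 and 26.3 CPM in CD4+CD8+ libraries and at 128, 122, 83.1, 235 and 32.5 CPM in iRTE libraries 1 to 5. Artificial CD8 libraries held 66.6, 53.0, 98.5, 56.2 and 57.8 CPM, and splenic libraries 71.6, 68.0, 81.6, 66.9 and 48.3 CPM. In Notch2, 4 of the 5 iRTE libraries were above every splenic library, but iRTE library 5 was below every splenic and Artificial CD8 library and iRTE library 4 was the highest of all. Against CD4+CD8+ cells (39.7 ± 11.6 CPM), Notch2 was 3.03-fold higher in iRTE cells (120 ± 74.6 CPM, 1.60 ± 0.54, adjusted p = 0.00854). That call was lost without CD4+CD8+ library 3 (1.38, adjusted p = 0.0585), with CD4+CD8+ library 1 alone (1.37, adjusted p = 0.217) and in a fit of these groups alone (1.60, adjusted p = 0.0844). The rise over splenic cells (67.3 ± 12.1 CPM) was 0.84 ± 0.49 (adjusted p = 0.0413) and was lost without any 1 of iRTE libraries 1, 2 or 4 or splenic libraries 1, 2, 4 or 5 (0.44 to 0.88). It was also lost with total-count scaling (0.66, adjusted p = 0.104), without the filter on low counts (0.85), with limma-voom (0.57, adjusted p = 0.175), in a fit of these groups alone (0.85), with iRTE libraries 4 and 5 alone (1.00), with the replicate number as a block (0.69) and with adjustment over all 6 comparisons (adjusted p = 0.0538). Leaving out iRTE library 4 gave 0.44 (adjusted p = 0.201), and leaving out iRTE library 5 gave 1.08 (adjusted p = 0.00132). Relative to Artificial CD8 cells (66.4 ± 18.6 CPM), the change in iRTE cells was 0.86 ± 0.50 and did not pass (adjusted p = 0.0527), and it passed without iRTE library 3 (0.96), iRTE library 5 (1.10) or Artificial CD8 library 3 (1.03), with iRTE libraries 1 to 3 alone (0.74), with DESeq2 (0.84) and with adjustment over all 6 comparisons (adjusted p = 0.0486). Neither Artificial CD8 (0.74 ± 0.32, adjusted p = 0.238) nor splenic cells (0.76 ± 0.30, adjusted p = 0.114) passed against CD4+CD8+ cells, although neither overlapped them, and both passed in fits of the groups compared alone (adjusted p = 0.0335 and 0.00451). Artificial CD8 and splenic cells differed by -0.02 ± 0.20 (adjusted p = 0.965).

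Receptors can be set against each other only per length. Per kilobase of exon, Notch1 was the most abundant of the 3 receptors in CD4+CD8+ (21.7 ± 1.12 CPM per kb), Artificial CD8 (37.5 ± 3.44) and splenic cells (13.3 ± 1.38). In iRTE cells Notch2 (11.1 ± 6.93 CPM per kb) and Notch1 (7.27 ± 1.18) lay within the spread of the libraries. As a share of the sum of the 3 receptors, Notch2 made up 53.1% ± 17.5 in iRTE libraries (27.7% to 73.1%), 31.4% ± 2.93 in splenic, 11.2% ± 1.9 in Artificial CD8 and 10.8% ± 3.61 in CD4+CD8+ libraries. The share in iRTE library 5 (27.7%) lay within the splenic range (26.7% to 34.3%), and that of the other 4 iRTE libraries lay above it. Notch3 made up 26.2% ± 7.02 in CD4+CD8+ and 20.1% ± 0.895 in Artificial CD8 libraries, 5.83% ± 5.68 in iRTE and 1.20% ± 0.649 in splenic libraries. Notch1 held 63.0% to 68.8% on average in the 3 other groups and 41.1% ± 13.7 in iRTE libraries. These shares are descriptions without a test, and they depend on exon lengths from a gene annotation that may not be the one used for counting.

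**Figure D2:**
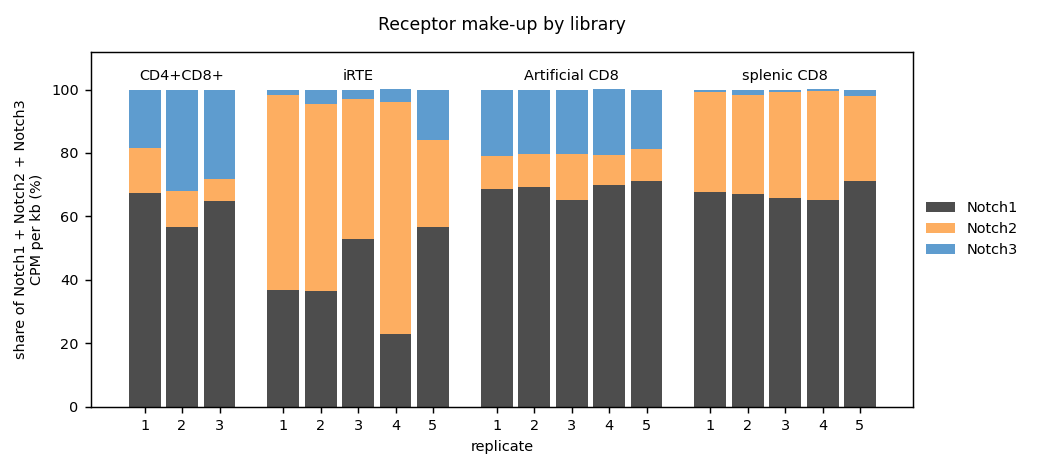
Share (%) of Notch1, Notch2 and Notch3 in the sum of their CPM per kilobase, 1 stacked bar per library, by group. Notch2 takes 27.7% to 73.1% of the sum in iRTE libraries, and Notch3 takes 18.4% or more in every CD4+CD8+ and Artificial CD8 library.

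Hes1, a repressor and direct target of Notch in thymocytes, stood at 25.2, 28.7 and 27.1 CPM in CD4+CD8+ libraries and at 23.0, 26.5, 20.4, 21.9 and 25.3 CPM in Artificial CD8 libraries. The iRTE libraries 1 to 5 held 8.34, 7.90, 15.1, 4.17 and 11.2 CPM, and splenic libraries 0.0540, 0.0708, 0.281, 0.121 and 0.0849 CPM. The 2 groups known to have grown on OP9-DL1 overlapped, every iRTE library lay below both, and every splenic library lay below every iRTE library. Hes1 was 2.89-fold lower in iRTE than in CD4+CD8+ cells (-1.53 ± 0.31, adjusted p = 0.000764) and 2.51-fold lower than in Artificial CD8 cells (-1.33 ± 0.31, adjusted p = 0.000533). Artificial CD8 and CD4+CD8+ cells differed by -0.21 ± 0.09, which did not pass (adjusted p = 0.697). The splenic value rests on 1 to 4 counts per library and 9 in all, against 589 in iRTE, 969 in CD4+CD8+ and 2071 in Artificial CD8 libraries. From these sums Hes1 was 76.1-fold higher in iRTE than in splenic cells, with an exact 95% interval of 39.8 to 167 for counting error only, 226-fold (119 to 496) higher in CD4+CD8+ cells and 196-fold (103 to 428) higher in Artificial CD8 cells. All 3 differences passed (adjusted p = 3.91e-10, 4e-11 and 2.07e-11). They passed also in each set of iRTE libraries alone and with CD4+CD8+ library 1 alone.

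Dtx1, which encodes the E3 ubiquitin ligase Deltex and is itself a Notch target, stood at 469, 505 and 479 CPM in CD4+CD8+ libraries and at 451, 447, 538, 467 and 500 CPM in Artificial CD8 libraries. Splenic libraries held 444, 425, 460, 483 and 420 CPM, and iRTE libraries 1 to 5 held 214, 200, 234, 104 and 32.2 CPM. Every iRTE library was below every other library, and the other 3 groups overlapped each other. Dtx1 was 3.09-fold lower in iRTE than in CD4+CD8+ cells (-1.63 ± 0.54, adjusted p = 0.00226), 3.07-fold lower than in Artificial CD8 cells (-1.62 ± 0.54, adjusted p = 0.000535) and 2.85-fold lower than in splenic cells (-1.51 ± 0.54, adjusted p = 0.000508). In iRTE libraries 1 to 3 alone these log2 changes were -1.16, -1.15 and -1.04, and in iRTE libraries 4 and 5 they were -2.82, -2.82 and -2.70, and all passed. The change from CD4+CD8+ cells did not pass in a fit of these groups alone (-1.63, adjusted p = 0.0599) or with CD4+CD8+ library 1 alone (-1.58, adjusted p = 0.0564). Differences among the other groups were small and did not pass: -0.01 ± 0.06 for Artificial CD8 and -0.12 ± 0.05 for splenic cells against CD4+CD8+ cells, and 0.11 ± 0.06 between Artificial CD8 and splenic cells (adjusted p = 0.991, 0.795 and 0.783).

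Dtx1 and Hes1 therefore gave different orders of the groups. The log2 ratio of Dtx1 to Hes1 counts was 4.17 ± 0.05 in CD4+CD8+ libraries, 4.36 ± 0.24 in Artificial CD8 libraries and 12.09 ± 0.88 in splenic libraries, where Dtx1 was at its full level and Hes1 nearly absent. In iRTE libraries it was 3.89 ± 1.36, and the lowest value, 1.53, belonged to iRTE library 5, in which Dtx1 was lowest and Hes1 was the second highest of the group. The ratio is given as a description, with no test.

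**Figure D3:**
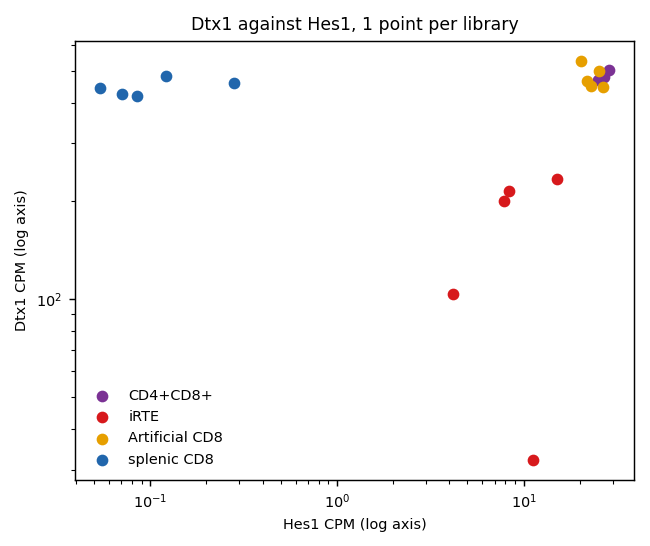
Dtx1 against Hes1 in scaled CPM, both axes logarithmic, 1 point per library, coloured by group. CD4+CD8+ and Artificial CD8 libraries lie together at the upper right, splenic libraries have Dtx1 at 420 to 483 CPM with Hes1 at 0.281 CPM or less, and iRTE libraries lie below all others for Dtx1.

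Nrarp, a Notch target whose protein binds the Notch complex and limits it, was rare, with 0 to 52 counts per library. It stood at 0.259, 1.01 and 0.567 CPM in CD4+CD8+ libraries and at 2.11, 3.02, 4.25, 0.374 and 3.33 CPM in iRTE libraries 1 to 5. Artificial CD8 libraries held 0.613, 0.740, 0.414, 0.660 and 0.464 CPM, and splenic libraries 0.432, 0.354, 0, 0.422 and 0.764 CPM. Unlike Hes1 and Dtx1, Nrarp was highest in iRTE cells. Of the 5 iRTE libraries, 4 were above every library of the other groups, and iRTE library 4, with 6 counts, lay among them. Nrarp was 4.46-fold higher in iRTE than in Artificial CD8 cells (2.16 ± 0.57, adjusted p = 0.012) and 6.55-fold higher than in splenic cells (2.71 ± 0.72, adjusted p = 0.00194). With iRTE libraries 4 and 5 alone the change from Artificial CD8 cells was 1.65 and did not pass (adjusted p = 0.135). Against CD4+CD8+ cells the change of 2.08 ± 0.71 did not pass (adjusted p = 0.0626), and it passed without iRTE library 4 (2.36, adjusted p = 0.0142), with iRTE libraries 1 to 3 alone (2.34, adjusted p = 0.016), with DESeq2 (2.09, adjusted p = 0.0228) and with adjustment over all 6 comparisons (adjusted p = 0.0398). The other 3 groups did not differ by test: -0.08 ± 0.46, -0.63 ± 0.64 and 0.55 ± 0.48 (adjusted p = 0.964, 0.494 and 0.485). In the GENCODE M21 annotation an opposite-strand gene, Gm38287, covers 2051 of the 2582 exonic bases of Nrarp, and whether reads were counted by strand is not given, so reads of the opposite gene cannot be told apart from Nrarp.

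The promoters of the genes that moved apart were compared for short words known to matter in this pathway. RBPJ binds the core TGGGAA, often within GTGGGAA, and Hes proteins bind the N-box CACNAG. RefSeq windows from 250 bases before to 50 bases after the gene start, on build GRCm38.p6, were found for 8 of the 9 genes (all but Hes1), in 11 windows, and searched on both strands. The windows shown are those of Notch1 at chr2:26503773-26504072 (minus strand), Notch3 at chr17:32166841-32167140 (minus strand), Dtx1 at chr5:120711620-120711919 (minus strand), Nrarp at chr2:25180508-25180807 (plus strand) and Rbpj at chr5:53590096-53590395 (plus strand), the last for being the gene with the RBPJ core. They are written 5′ to 3′ on the strand of the gene, and capitals mark CACNAG in the first 4 windows and TGGGAA in the last, or their reverse complements.
Notch1: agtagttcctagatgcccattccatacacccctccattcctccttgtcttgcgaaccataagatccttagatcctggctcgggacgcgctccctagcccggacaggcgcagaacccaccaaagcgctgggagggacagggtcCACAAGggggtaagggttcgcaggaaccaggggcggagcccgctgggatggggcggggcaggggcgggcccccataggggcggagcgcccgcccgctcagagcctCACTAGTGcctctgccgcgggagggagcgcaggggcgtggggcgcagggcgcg
Notch3: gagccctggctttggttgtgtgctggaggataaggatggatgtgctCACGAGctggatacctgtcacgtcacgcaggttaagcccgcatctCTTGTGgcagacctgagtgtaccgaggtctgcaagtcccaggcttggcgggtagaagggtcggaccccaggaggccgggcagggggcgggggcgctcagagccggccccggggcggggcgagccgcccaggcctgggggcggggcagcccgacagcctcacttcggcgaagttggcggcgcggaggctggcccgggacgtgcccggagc
Dtx1: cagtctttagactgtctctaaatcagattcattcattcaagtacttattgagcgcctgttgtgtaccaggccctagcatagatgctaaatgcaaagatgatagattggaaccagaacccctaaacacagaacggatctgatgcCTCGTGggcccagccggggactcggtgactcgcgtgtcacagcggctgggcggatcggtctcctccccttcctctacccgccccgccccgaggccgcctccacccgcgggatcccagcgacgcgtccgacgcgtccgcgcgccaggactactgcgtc
Nrarp: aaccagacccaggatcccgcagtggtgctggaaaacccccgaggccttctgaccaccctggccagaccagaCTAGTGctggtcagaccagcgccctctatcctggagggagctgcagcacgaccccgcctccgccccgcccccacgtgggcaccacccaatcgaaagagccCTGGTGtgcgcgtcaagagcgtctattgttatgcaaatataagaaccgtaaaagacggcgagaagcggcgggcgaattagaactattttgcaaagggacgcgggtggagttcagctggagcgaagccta
Rbpj: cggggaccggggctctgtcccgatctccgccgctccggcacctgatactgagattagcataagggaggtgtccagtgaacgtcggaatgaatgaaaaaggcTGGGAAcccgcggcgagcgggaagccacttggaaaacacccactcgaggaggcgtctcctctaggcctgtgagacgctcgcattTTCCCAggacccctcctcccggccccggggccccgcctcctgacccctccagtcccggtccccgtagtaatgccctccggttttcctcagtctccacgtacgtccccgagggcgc

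TGGGAA was found in 2 of the 11 windows, both of Rbpj, where the window shown holds it once on each strand, and in 25.6% of 32851 mouse promoter windows. The 2 Rbpj windows overlap, and the only match in the window not shown is the same TTCCCA, so that site was counted in both. GTGGGAA was found in none of the 11 windows and in 6.38% of all. CACNAG was found in 6 of the 11 windows, 3 times in the window of Notch1, 2 times each in those of Nrarp and Notch3 and once in that of Dtx1, where 42.5% of all windows have at least 1 match. On Notch1 a pair of the matches, CACTAG and CTAGTG, overlap in the run CACTAGTG at the gene start. Dtx1, lower in iRTE cells, and Nrarp, higher there, gave the same result for these words: an N-box in the window and no RBPJ core. A match is a description of letters in a window and not of binding.

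Rbpj, the DNA-binding partner of all Notch receptors, stood at 45.8, 60.1 and 72.3 CPM in CD4+CD8+ libraries and at 70.1, 67.6, 56.3, 67.5 and 20.7 CPM in iRTE libraries 1 to 5. Artificial CD8 libraries held 75.5, 70.2, 78.0, 61.4 and 60.1 CPM, and splenic libraries 44.1, 42.9, 43.5, 35.8 and 36.9 CPM. Splenic cells were the lowest group apart from iRTE library 5, which was below all other libraries. Rbpj was 1.70-fold higher in Artificial CD8 than in splenic cells (0.76 ± 0.10, adjusted p = 0.00737), the only comparison of the 6 that passed. The change of iRTE from splenic cells was 0.47 ± 0.34 (adjusted p = 0.0844), and 0.69 without iRTE library 5 (adjusted p = 0.000174). Splenic cells did not overlap CD4+CD8+ cells but did not pass against them (-0.55 ± 0.20, adjusted p = 0.0798), except in a fit of these groups alone (-0.56, adjusted p = 0.00401). The remaining changes were -0.08 ± 0.39 for iRTE and 0.22 ± 0.21 for Artificial CD8 against CD4+CD8+ cells, and -0.29 ± 0.34 for iRTE against Artificial CD8 cells (adjusted p = 0.878, 0.642 and 0.331).

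Maml1, a Mastermind coactivator of the complex, ran the other way from Rbpj, with its highest level in splenic cells. It stood at 12.7, 8.96 and 8.99 CPM in CD4+CD8+ libraries and at 8.62, 10.3, 9.20, 12.8 and 14.6 CPM in iRTE libraries. Artificial CD8 libraries held 7.78, 9.37, 11.4, 8.53 and 11.7 CPM, and splenic libraries 16.1, 19.8, 15.8, 14.6 and 14.8 CPM. All splenic libraries were above every CD4+CD8+ and Artificial CD8 library, and iRTE library 5 reached the lowest of them. Maml1 was 1.66-fold lower in Artificial CD8 than in splenic cells (-0.74 ± 0.14, adjusted p = 0.00265) and 1.45-fold lower in iRTE cells (-0.54 ± 0.16, adjusted p = 0.0208). Against CD4+CD8+ cells splenic Maml1 was 1.59-fold higher (0.67 ± 0.18, adjusted p = 0.0174). The iRTE call was lost without iRTE library 1 (-0.46), without splenic library 2 (-0.44) and with iRTE libraries 4 and 5 alone (-0.23). The CD4+CD8+ call was lost without CD4+CD8+ library 2 (0.57), CD4+CD8+ library 3 (0.57) or splenic library 2 (0.57), and with CD4+CD8+ library 1 alone (0.35). No difference passed among CD4+CD8+, iRTE and Artificial CD8 cells (0.13 ± 0.22, -0.07 ± 0.20 and 0.19 ± 0.18, adjusted p = 0.734, 0.88 and 0.451).

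Numb, an endocytic adaptor that holds Notch receptors back, stood at 35.4, 40.0 and 44.0 CPM in CD4+CD8+ libraries and at 63.0, 59.4, 42.7, 58.3 and 60.4 CPM in iRTE libraries. Artificial CD8 libraries held 34.2, 22.3, 36.9, 28.4 and 30.4 CPM, and splenic libraries 61.8, 73.1, 66.6, 68.0 and 61.2 CPM. Numb was lowest in Artificial CD8 cells, where Notch1 was highest, and all iRTE and splenic libraries lay above that group. The rise over Artificial CD8 cells (30.4 ± 5.63 CPM) was 1.86-fold in iRTE cells (56.7 ± 8.06 CPM, 0.90 ± 0.16, adjusted p = 3.68e-05). Artificial CD8 cells were 2.17-fold below splenic cells (66.2 ± 4.87 CPM, -1.12 ± 0.13, adjusted p = 9.49e-07). Against CD4+CD8+ cells (39.8 ± 4.30 CPM) Numb was 1.66-fold higher in splenic cells (0.73 ± 0.10, adjusted p = 0.000722) and 1.43-fold higher in iRTE cells (0.51 ± 0.14, adjusted p = 0.023). The iRTE rise over CD4+CD8+ cells was lost without CD4+CD8+ library 1 (0.43) or library 2 (0.52), with total-count scaling (0.41), without the filter on low counts (0.50), in a fit of these groups alone (0.52) and with CD4+CD8+ library 1 alone (0.69). Artificial CD8 cells did not pass against CD4+CD8+ cells (-0.39 ± 0.15, adjusted p = 0.103), nor did iRTE against splenic cells (-0.22 ± 0.11, adjusted p = 0.164), which passed with total-count scaling (-0.40, adjusted p = 0.0213).

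Over the 9 genes, each comparison was read against the share of all 13922 tested genes called in it. Between iRTE and CD4+CD8+ cells, 2 genes were higher and 4 lower in iRTE, and 24.2% of all genes were called (11.8% higher, 12.3% lower). The 6 called genes are Notch2 and Numb, higher, and Notch1, Notch3, Hes1 and Dtx1, lower. The iRTE and Artificial CD8 cells differed in 2 higher genes (Nrarp and Numb) and 4 lower genes (Notch1, Notch3, Hes1 and Dtx1), with 38.7% of all genes called (20% higher, 18.7% lower). Artificial CD8 and CD4+CD8+ cells differed in Notch1 alone, 1 of 9, where 14.7% of all genes were called (6.54% higher, 8.12% lower). A fit of those groups alone called 2 genes.

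In each comparison with splenic cells a larger share of all genes was called than in the other 3, while 5 to 7 of the 9 genes were. Against CD4+CD8+ cells, 2 genes were higher and 3 lower in splenic cells, where 56.2% of all genes were called (27.4% higher, 28.9% lower). Against splenic cells, iRTE cells had 4 higher genes (Notch2, Notch3, Hes1 and Nrarp) and 3 lower (Notch1, Dtx1 and Maml1), beside 58.2% of all genes (29.2% higher, 29% lower). Artificial CD8 cells had 4 higher (Notch1, Notch3, Hes1 and Rbpj) and 2 lower (Maml1 and Numb), beside 60.6% of all genes (30.3% higher, 30.2% lower). The median log2 change of the 9 genes lay between -0.55 and 0.55 over the 6 comparisons, that of all tested genes between -0.05 and 0.03. Groups did not overlap for 4 of the 9 genes between iRTE and CD4+CD8+ cells (19.5% of all genes), 5 between iRTE and Artificial CD8 cells (23.6%) and 2 between Artificial CD8 and CD4+CD8+ cells (29%). They did not overlap for 7 between splenic and CD4+CD8+ cells (63.4%), 3 between iRTE and splenic cells (41.2%) and 6 between Artificial CD8 and splenic cells (61.1%). With total-count scaling in place of TMM, the median of all genes moved by -0.10 between iRTE and CD4+CD8+, by -0.12 between iRTE and Artificial CD8 and by -0.18 between iRTE and splenic cells. The share of called genes that were higher in iRTE cells moved with it, from 48.9% to 36.9%, from 51.8% to 39.4% and from 50.2% to 40.5%. No called change of the 9 genes turned its direction. The comparisons share groups, so these counts are not independent of each other.

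**Figure D4:**
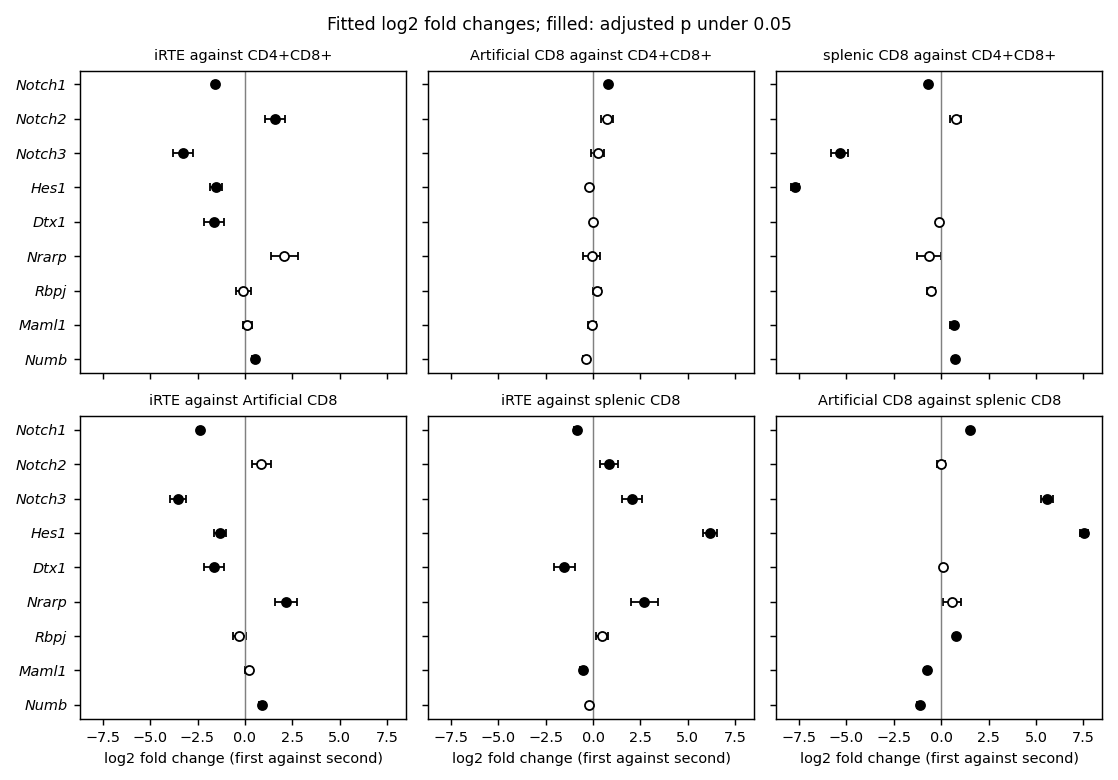
Fitted log2 fold changes of the 9 genes in the 6 comparisons, first group against second. Bars are 1 SE of the difference in mean log2 CPM, filled points have an adjusted p under 0.05 and open points do not. Hes1 and Notch3 have the widest changes against splenic cells, 7.51 and 5.60 for Artificial CD8 cells.

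The ligands, the other receptor and the machinery around them were read from a list of 69 further pathway genes, of which 62 were tested. Dll3 and Dll4 had no count in any library, and Dll1, the ligand that OP9-DL1 carries as a transgene, had at most 5 counts in any library and none in the iRTE libraries. Jag1 stood at 3.11, 0.754 and 2.35 CPM in CD4+CD8+ libraries and at 0.980, 0.925, 2.72, 1.07 and 1.29 CPM in Artificial CD8 libraries. In iRTE libraries it was 1.72, 0.178, 0, 0.685 and 3.77 CPM, and in splenic libraries 0, 0.354, 0, 0.121 and 0.170 CPM. It fell by 3.97 ± 0.67 on the log2 scale from CD4+CD8+ to splenic cells (adjusted p = 0.00424), and relative to splenic cells it was higher by 3.29 ± 0.94 in iRTE and by 3.41 ± 0.44 in Artificial CD8 cells (adjusted p = 0.00898 and 0.00651). Without splenic library 2 these changes were -4.79, 4.11 and 4.23, and without iRTE library 5 the iRTE change was 2.30. The splenic Jag1 level rests on 0 to 5 counts per library and 9 in all. Its mean of 0.129 CPM lies below the floor of 3 counts, so the sizes of these changes are uncertain. The iRTE call was lost with limma-voom (2.55, adjusted p = 0.0702) and with iRTE libraries 1 to 3 alone (2.27, adjusted p = 0.0631). Jag2 was lower in iRTE than in splenic cells (0.451 against 2.42 CPM, -2.34 ± 0.75, adjusted p = 0.0203), and -3.27 without iRTE library 5. That call was lost with iRTE libraries 4 and 5 alone (-1.30, adjusted p = 0.209) and with the replicate number as a block (-2.38, adjusted p = 0.0521). Notch4 had at most 12 counts in any library.

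Genes that process or glycosylate the receptors had called changes only upward in iRTE cells against CD4+CD8+ and Artificial CD8 cells. Of 14 tested, 6 rose, none fell and 8 did not pass against CD4+CD8+ cells (11.8% of all genes rose and 12.3% fell), and 7 rose, none fell and 7 did not pass against Artificial CD8 cells (20% and 18.7%). Psen2, a catalytic subunit of the gamma-secretase that frees the intracellular part, was 2.39-fold above CD4+CD8+ cells (39.1 against 16.3 CPM, 1.26 ± 0.28, adjusted p = 0.000124) and 2.70-fold above Artificial CD8 cells (1.43 ± 0.13, adjusted p = 1.77e-06). The iRTE libraries held 34.1, 40.6, 52.9, 35.3 and 32.6 CPM of Psen2, all above the 12.3 to 22.1 CPM of the CD4+CD8+ libraries. Aph1a, another subunit, rose 2.03-fold over CD4+CD8+ cells (1.02 ± 0.20, adjusted p = 0.000213) and 2.08-fold over splenic cells (1.05 ± 0.14, adjusted p = 5.27e-06). Mfng, a fringe sugar transferase that changes which ligand a receptor prefers, was at 157 CPM in iRTE and 87.4 CPM in Artificial CD8 cells (0.84 ± 0.09, adjusted p = 1.66e-06). Its splenic mean was 158 CPM. Splenic cells had 4 higher and 2 lower genes of the 14 than CD4+CD8+ cells, no larger a share than the 56.2% of all genes, among them the fringe gene Rfng (46.9 against 18.2 CPM, 1.36 ± 0.17, adjusted p = 2.22e-05). In iRTE cells Rfng was 2.82-fold below splenic cells (-1.50 ± 0.19, adjusted p = 9.49e-07), with 6 other genes of the list higher in iRTE cells. In that comparison 29.2% of all genes were higher and 29% lower in iRTE cells, 58.2% in either direction. The median of the list was 0.38 for iRTE against CD4+CD8+ and 0.36 against Artificial CD8 cells, where that of all genes was 0.02 and 0.01. Artificial CD8 and CD4+CD8+ cells had no called gene in it, where 14.7% of all genes were called.

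Of 18 nuclear coactivators and corepressors, 11 rose, 2 fell and 5 did not pass in splenic against CD4+CD8+ cells (median 0.57, all genes 0.03), where 27.4% of all genes rose and 28.9% fell. Against splenic cells, 10 of 18 were lower and 2 higher in iRTE cells, beside 29% and 29.2% of all genes, and 10 were lower and 3 higher in Artificial CD8 cells, beside 30.2% and 30.3%. In either direction 56.2%, 58.2% and 60.6% of all genes were called in these comparisons. Spen, a corepressor that binds RBPJ, was at 145 CPM in splenic cells against 50.8 CPM in CD4+CD8+ (1.51 ± 0.09, adjusted p = 5.68e-08), 52.2 CPM in iRTE and 45.9 CPM in Artificial CD8 cells. Its iRTE change from splenic cells was -1.47 ± 0.09 (adjusted p = 7.08e-09) and its Artificial CD8 change -1.66 ± 0.11 (adjusted p = 8.49e-10). Maml2, a relative of Maml1, was 2.57-fold higher in iRTE than in Artificial CD8 cells (28.6 against 11.1 CPM, 1.36 ± 0.29, adjusted p = 0.000141). Its highest mean was in splenic cells, at 67.3 CPM. Against CD4+CD8+ cells 5 rose, none fell and 13 did not pass in iRTE cells, among the 5 the acetyltransferase Kat2b (0.67 ± 0.08, adjusted p = 0.000661). Of all genes, 11.8% rose and 12.3% fell in that comparison, 24.2% in either direction. Kat2b averaged 40.8 CPM in iRTE cells and was higher in splenic cells, at 60.6 CPM.

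Among 14 genes of endocytosis and turnover, 6 rose and 2 fell in splenic against CD4+CD8+ cells, and 3 rose and 1 fell in iRTE cells. These counts are near the shares of all genes called in the same comparisons, 56.2% and 24.2%. Neurl3, a Neuralized-family gene, was 30.5-fold higher in splenic than in CD4+CD8+ cells (97.3 against 3.19 CPM, 4.93 ± 0.09, adjusted p = 1.29e-08). The iRTE libraries lay between, at 22.9, 17.1, 22.2, 15.4 and 6.85 CPM, and all of them were above the CD4+CD8+ libraries (2.92 to 3.55 CPM) and below the splenic libraries (88.0 to 105 CPM). Neurl3 was 5.27-fold higher in iRTE than in CD4+CD8+ cells (2.4 ± 0.32, adjusted p = 0.000113) and 5.78-fold lower than in splenic cells (-2.53 ± 0.32, adjusted p = 5.8e-07). Skp2, an ubiquitin ligase subunit of the cell cycle that is also described as a Notch target, was 6.88-fold lower in iRTE than in Artificial CD8 cells (7.74 against 53.3 CPM, -2.78 ± 0.34, adjusted p = 1.89e-07). Nedd4, a ligase that acts on Notch, was 2.36-fold lower in splenic than in CD4+CD8+ cells (-1.24 ± 0.20, adjusted p = 2.02e-07) and 2.20-fold higher in iRTE than in splenic cells (1.13 ± 0.09, adjusted p = 1.56e-07).

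Of 13 further targets in T-lineage cells that were tested, 2 rose and 4 fell in iRTE against CD4+CD8+ cells (median -0.27), where 24.2% of all genes were called. Against Artificial CD8 cells 2 rose and 7 fell in iRTE cells (median -0.39, 38.7% of all genes called), and 3 rose and 1 fell in Artificial CD8 against CD4+CD8+ cells (median 0.18, 14.7% of all genes called). Il2ra, the alpha chain of the interleukin-2 receptor and a mark of early T progenitors and of activated cells, stood at 199, 227 and 213 CPM in CD4+CD8+ libraries and at 586, 560, 526, 499 and 499 CPM in Artificial CD8 libraries. The iRTE libraries held 54.1, 131, 182, 16.6 and 88.3 CPM, and splenic libraries 3.50 to 4.53 CPM. No group overlapped another, with Artificial CD8 libraries highest, then CD4+CD8+, iRTE and splenic libraries. Il2ra was 5.67-fold lower in iRTE than in Artificial CD8 cells (-2.50 ± 0.60, adjusted p = 3.32e-05) and 23.1-fold higher than in splenic cells (4.53 ± 0.60, adjusted p = 7.61e-08). Its fall from CD4+CD8+ to iRTE cells (-1.18 ± 0.60, adjusted p = 0.0388) was lost without any 1 of CD4+CD8+ libraries 1 to 3 or iRTE libraries 1 or 5 (-1.23 to -1.03), without the filter on low counts (-1.20), in a fit of these groups alone (-1.18) and with CD4+CD8+ library 1 alone (-1.08). Its rise in Artificial CD8 cells (1.33 ± 0.07, adjusted p = 0.0438) was lost without any 1 library of either group (1.28 to 1.38), without the filter on low counts (1.35) and with CD4+CD8+ library 1 alone (1.44), although no library overlapped. That rise stayed called in a fit of these groups alone, with DESeq2 and with limma-voom.

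Ptcra, the pre-T-cell receptor alpha chain, stood at 163, 114 and 108 CPM in CD4+CD8+ libraries and at 22.2, 16.3, 14.7, 21.9 and 28.6 CPM in Artificial CD8 libraries. No splenic library and only 1 iRTE library, number 5 with 4.16 CPM, had a Ptcra count. The CD4+CD8+ mean of 128 CPM was at least 628-fold above the floor of 3 counts per splenic library, and that of Artificial CD8 cells at least 102-fold. In iRTE cells Ptcra fell by 7.09 ± 1.01 from CD4+CD8+ cells (adjusted p = 4.52e-05), and without iRTE library 5 no iRTE library had a count. The fall from CD4+CD8+ to Artificial CD8 cells (-2.63 ± 0.25, adjusted p = 0.0241) was lost without any 1 of CD4+CD8+ libraries 1 to 3 or Artificial CD8 libraries 1 to 4 (-2.73 to -2.42), without the filter on low counts (-2.60) and with CD4+CD8+ library 1 alone (-2.96). That fall stayed called in a fit of these groups alone and with the replicate number as a block (-3.07), and no library overlapped.

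Myc is a growth regulator and Notch target in early T cells. It was highest in iRTE cells, where Hes1 and Dtx1 were below their CD4+CD8+ and Artificial CD8 levels. Like Hes1, Myc was lowest in splenic cells. It stood at 296, 340, 343, 304 and 825 CPM in iRTE libraries, at 208, 206 and 198 CPM in CD4+CD8+ libraries, at 222 to 235 CPM in Artificial CD8 and at 64.8 to 89.5 CPM in splenic libraries. All iRTE libraries were above every other library, and iRTE library 5 stood far above the rest of its group. Myc was 2.07-fold higher in iRTE than in CD4+CD8+ cells (1.05 ± 0.28, adjusted p = 0.00525), 1.83-fold higher than in Artificial CD8 cells (0.87 ± 0.28, adjusted p = 0.00324) and 5.65-fold higher than in splenic cells (2.50 ± 0.29, adjusted p = 3.76e-08). The first of these did not pass in a fit of these groups alone (1.06, adjusted p = 0.0913) or with CD4+CD8+ library 1 alone (1.03, adjusted p = 0.134). Gata3, a T-lineage transcription factor, was highest in Artificial CD8 cells (129 CPM, 0.62 ± 0.07 above CD4+CD8+ cells, adjusted p = 0.000756) and lowest in splenic cells (31.9 CPM). In iRTE cells it was 1.86-fold lower than in Artificial CD8 cells (-0.89 ± 0.08, adjusted p = 3.67e-07) and 2.18-fold higher than in splenic cells (1.12 ± 0.08, adjusted p = 9.57e-09). The interleukin-7 receptor gene Il7r, which rises as CD8+ cells mature, was 2.54-fold higher in iRTE than in CD4+CD8+ cells (1.35 ± 0.25, adjusted p = 0.000201) and 1.63-fold lower than in splenic cells (-0.70 ± 0.25, adjusted p = 0.00281).

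**Figure D5:**
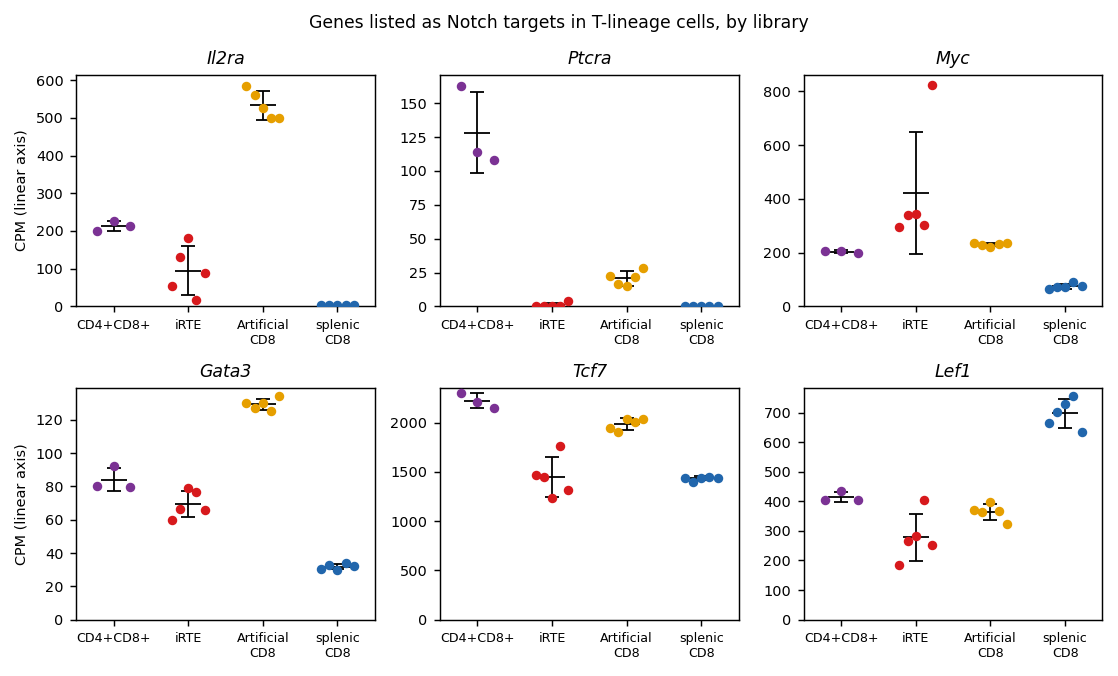
Scaled CPM (linear axes, from 0) of 6 genes listed as Notch targets in T-lineage cells, 1 point per library, with group means and bars of 1 SD (n = 3 for CD4+CD8+, n = 5 for the others). Il2ra and Gata3 are highest in Artificial CD8 libraries, Ptcra in CD4+CD8+ libraries, Myc in iRTE libraries and Lef1 in splenic libraries.

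The genes with profiles most like those of 4 members were named by the smallest root mean square difference of centred log2 CPM over the 18 libraries, among 11631 genes. For Notch1 these were Sh3rf1 (0.27), Heg1 (0.30) and Lman2l (0.32), and Heg1 stood at 152 ± 28.0 CPM in Artificial CD8 and 26.4 ± 9.32 CPM in iRTE cells. For Dtx1 they were Cep41 (0.21), Mccc2 (0.50) and Glce (0.52), with Cep41 at 4.33 ± 2.56 CPM in iRTE cells and at 12.1 to 13.5 CPM on average in the other groups. For Hes1 they were Cdkn2b (0.65), Oaf (0.67) and Il9r (0.68), all at 0.137 CPM or less on average in splenic cells. For Nrarp they were the intermediate filament gene Vim (0.69), Fbxw8 (0.71) and Acadl (0.73), where Vim averaged 138 ± 6.63 CPM in splenic libraries and 846 ± 413 CPM in iRTE libraries. None of the 9 genes was among the nearest 3 of these 4 members, and nearest genes were not sought for the remaining members. Notch1 ranked 120th by closeness to Dtx1 (0.74), and Notch3 ranked 169th by closeness to Hes1 (1.48). These genes were picked for their profiles, so no test is given.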

How the data were processed

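RNA sequencing counts of 18 libraries were used, in 4 groups taken from the library titles. The authors deposited whole-number read counts by gene symbol, made with STAR 2.4.2, build mm9 and Subread, per the submitters' processing notes. Column names, per the file headers, point to sorted alignments with duplicates marked. Neither annotation nor strandedness is given in the sources used here. A deposited table of log2 values was not used. Duplicate marking and unstranded counting could change low values.

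Low-count genes were removed with filterByExpr (edgeR 4.0.16, R 4.3.3). TMM-scaled counts of all 18 libraries were fitted with 1 coefficient for each group, and the 6 pairs of groups were compared with the quasi-likelihood test, adjusting p-values by Benjamini and Hochberg. The fit was tested on simulated data in which a gene had the same spread in every group. That test did not cover groups of unequal spread. Replicate pairs of a group differed beyond sampling noise, the lowest chi-square divided by its degrees of freedom being 4.4 among 33 pairs. Exon lengths and overlaps are from GENCODE M21 and promoters from RefSeq on GRCm38.p6.

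Alternatives were RLE and total-count scaling, other filters, DESeq2 1.42.0, limma-voom (limma 3.58.1), the compared groups alone, each set of iRTE libraries, a replicate block, each library left out, adjustment over all comparisons and, chosen after seeing the data, CD4+CD8+ library 1 alone. The rule for naming genes took the 9 members, the ligands, up to 2 called genes per pathway list, comparison and direction with the smallest adjusted p, the 3 nearest profiles of 4 members (leaving out predicted and clone-named genes) and defining markers. Values of Il2ra, Myc, Gata3 and Il7r outside that rule, and Notch4, were chosen to complete a gene. The members and lists were chosen with earlier results of these data known.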

Additional observations from a re-analysis of the deposited data

Results flagged for a closer look

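Of 27 pairs of a gene and a group of 5 libraries, 3 had 1 library far from the others by Dixon's test, and chance flags about 1 in 20 groups. Rbpj in iRTE library 5 was 20.7 CPM, where the other iRTE libraries held 56.3 to 70.1 CPM. Maml1 in splenic library 2 was 19.8 CPM, where the others held 14.6 to 16.1 CPM. Numb in iRTE library 3 was 42.7 CPM, where the others held 58.3 to 63.0 CPM.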

How the results depend on the processing

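All 31 called changes of the 9 genes kept their direction under every alternative run, and 24 also stayed called throughout. The 7 that were lost at least once are given beside their values above, and of 93 called changes of pathway genes, 70 stayed called throughout and none reversed.

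Between iRTE and CD4+CD8+ cells, the fit of these groups alone called 1068 genes, 3 of the 9 members and 12 pathway genes, and CD4+CD8+ library 1 alone left 1786 genes and 3 members (3367, 6 and 21 as reported). Between Artificial CD8 and CD4+CD8+ cells, the groups alone called 3362 genes and 2 members, and CD4+CD8+ library 1 alone 1345 genes (2041 and 1 as reported). Pathway calls there were 8 as reported, 5 without the low-count filter and 4 to 8 with each library left out, where genes called ran from 1316 (without CD4+CD8+ library 1) to 1773. The cause was not tested.

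Every reversal was of a change that was not called. Rbpj between iRTE and CD4+CD8+ cells became 0.12 with iRTE libraries 1 to 3, 0.30 with CD4+CD8+ library 1 alone and ran from -0.24 to 0.14 with each library left out. Maml1 became -0.12 and -0.19 under the first 2 of these settings, and -0.05 between iRTE libraries 1 to 3 and Artificial CD8 cells. Between Artificial CD8 and CD4+CD8+ cells, Dtx1 became 0.01 with RLE or total-count scaling, without the low-count filter and with DESeq2, and 0.04 with CD4+CD8+ library 1 alone, and Nrarp became 0.03 with limma-voom and 1.14 with that library alone. With each library left out these ran from -0.05 to 0.02 (Dtx1) and -0.44 to 0.47 (Nrarp), Notch3 from 0.00 to 0.49 and Maml1 from -0.15 to 0.12. Nrarp between splenic and CD4+CD8+ cells became 0.58 with CD4+CD8+ library 1 alone. Notch2 between Artificial CD8 and splenic cells became 0.02 without the low-count filter and ran from -0.18 to 0.08 with each library left out.

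Whether equal replicate numbers mark a shared culture, animal or day is not given. Deviations correlated at -0.07 to 0.06 over 24 same-numbered pairs, so no pairing was seen, which does not settle whether there was any. With the number as a replicate block, the 6 comparisons called 2998, 1821, 7326, 5144, 7958 and 8350 genes, in the order iRTE, Artificial CD8 and splenic against CD4+CD8+, iRTE against Artificial CD8 and splenic, and Artificial CD8 against splenic cells. Members called were 5, 1, 4, 6, 6 and 6. Of the members' calls, the block lost Numb between iRTE and CD4+CD8+ (0.52), Maml1 between splenic and CD4+CD8+ (0.61) and Notch2 between iRTE and splenic cells (0.69). It reversed Rbpj between iRTE and CD4+CD8+ cells (0.03), Dtx1 (0.21) and Nrarp (0.04) between Artificial CD8 and CD4+CD8+ cells, Dtx1 between splenic and CD4+CD8+ cells (0.10) and Notch2 between Artificial CD8 and splenic cells (0.02), none of them called. Depth limits Nrarp, splenic Hes1 and splenic Jag1, which rest on a few counts.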
